A study of Mus musculus with 12 samples.

Results

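The 39 genes described here encode the enzymes and carriers that burn fatty acids in the mitochondria and peroxisomes of the liver, together with Bdh1 of ketone body synthesis and Ppara, the nuclear receptor that switches on much of this pathway. They were taken by symbol from a table of raw counts that lists 25540 genes, and all 39 were found there and passed the filter on low counts. By the usual place of their proteins, 19 are mitochondrial, 16 are peroxisomal, Eci2 and Crat work in both organelles, Acot1 is cytosolic and Ppara is nuclear. The samples were liver of BALB/c mice, with 3 samples in each of 4 groups, and the groups differed in an injected preparation called iExos. The siSTAT3 and mASO STAT3 groups received iExos whose load is named for STAT3, and the siCntrl and mASO Scrbl groups received the control loads labelled to match them. The series title places the work in liver fibrosis and names exosomes, small vesicles that cells release, as carriers. STAT3 is a transcription factor activated by interleukin 6. By common usage si marks small interfering RNA and ASO an antisense oligonucleotide, and the meaning of the m was not given in the sources used here. Dose, timing, age, sex and any injury of the mice were not given either, and uninjected livers were not analysed here.

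Long-chain fatty acids enter mitochondria as carnitine esters, made by Cpt1a, and are then shortened in a repeating spiral of dehydrogenases, hydratases and thiolases whose electrons pass through the electron transfer flavoprotein. Peroxisomes shorten very long and branched chains with their own oxidases, bifunctional enzymes and thiolases, and remove a single carbon from methyl-branched acids by alpha-oxidation. In the fasted liver PPARA, the product of Ppara, raises the transcription of both routes and of ketogenesis.

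The stretches around the transcription starts of 6 members are shown, and these members were picked by their expression results. Acot3 and Phyh rose the most in the siRNA arm, Acot1 is a close neighbour and paralog of Acot3 that did not pass, Hacl1 was the only gene whose change differed between the arms by edgeR's test, Acox2 fell in both arms, and Hadha did not pass in either. Each is 300 bases of RefSeq promoter sequence on GRCm38.p6, from 250 bases before the start to 50 after it, written 5′ to 3′ on the strand of the gene. Capitals mark a match to AGGTCA (the core element of many nuclear receptors), TTCNNNGAA (the palindrome that STAT factors bind) or CCAAT on either strand, and the Acox2 stretch held no match. The other window listed for Acox2, not shown, held a match to CCAAT.
Acot3: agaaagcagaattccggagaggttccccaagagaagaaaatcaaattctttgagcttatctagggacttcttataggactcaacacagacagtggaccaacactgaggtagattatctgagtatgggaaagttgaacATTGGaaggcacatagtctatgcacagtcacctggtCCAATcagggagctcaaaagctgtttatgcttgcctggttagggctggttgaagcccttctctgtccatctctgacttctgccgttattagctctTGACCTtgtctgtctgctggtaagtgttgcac
Acot1: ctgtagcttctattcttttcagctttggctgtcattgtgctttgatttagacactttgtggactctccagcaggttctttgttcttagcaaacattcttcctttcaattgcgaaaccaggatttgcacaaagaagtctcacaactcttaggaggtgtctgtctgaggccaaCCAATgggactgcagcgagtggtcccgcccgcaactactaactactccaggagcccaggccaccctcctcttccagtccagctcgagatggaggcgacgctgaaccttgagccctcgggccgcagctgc
Phyh: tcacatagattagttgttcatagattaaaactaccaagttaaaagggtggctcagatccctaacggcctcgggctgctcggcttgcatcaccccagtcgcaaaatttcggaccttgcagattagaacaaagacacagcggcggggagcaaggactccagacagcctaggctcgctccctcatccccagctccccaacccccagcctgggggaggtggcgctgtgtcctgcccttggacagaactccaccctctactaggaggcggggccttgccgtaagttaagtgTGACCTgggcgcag
Hacl1: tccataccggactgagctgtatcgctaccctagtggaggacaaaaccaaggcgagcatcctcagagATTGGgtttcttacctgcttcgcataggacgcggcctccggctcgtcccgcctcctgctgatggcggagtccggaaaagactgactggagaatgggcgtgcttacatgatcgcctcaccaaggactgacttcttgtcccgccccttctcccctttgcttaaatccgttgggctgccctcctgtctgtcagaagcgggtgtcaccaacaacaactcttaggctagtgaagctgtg
Acox2: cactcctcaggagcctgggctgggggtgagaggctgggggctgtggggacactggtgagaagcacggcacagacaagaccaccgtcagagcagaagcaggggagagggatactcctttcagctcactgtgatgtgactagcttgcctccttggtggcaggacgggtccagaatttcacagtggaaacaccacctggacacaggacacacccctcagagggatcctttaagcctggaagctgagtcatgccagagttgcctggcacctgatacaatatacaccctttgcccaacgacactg
Hadha: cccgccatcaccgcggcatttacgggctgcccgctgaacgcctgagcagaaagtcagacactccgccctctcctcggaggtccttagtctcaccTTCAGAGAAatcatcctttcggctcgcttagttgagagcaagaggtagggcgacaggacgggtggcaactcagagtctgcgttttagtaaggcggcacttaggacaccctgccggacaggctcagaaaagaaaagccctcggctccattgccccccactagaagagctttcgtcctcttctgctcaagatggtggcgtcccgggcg
The Acot3 stretch lies at chr12:84051894-84052193 on the plus strand and the Acot1 stretch at chr12:84009252-84009551 on the plus strand. The Phyh stretch lies at chr2:4918746-4919045 on the plus strand, the Hacl1 stretch at chr14:31640916-31641215 on the minus strand, the Acox2 stretch, 1 of 2 listed for that gene, at chr14:8258970-8259269 on the minus strand, and the Hadha stretch at chr5:30154931-30155230 on the minus strand. Hadha and Hadhb, the subunits of the trifunctional protein, start head to head, and their promoter windows share 228 bases at chr5:30155003-30155230.

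The table gave 38 promoter windows for 35 of the 39 members, all but Crat, Acaa2, Decr1 and Hsd17b4. AGGTCA was found in 10 of the 38 windows (26.3%), against 16.3% of 32851 windows of all genes, and CCAAT in 18 (47.4%), against 37.4%. TTCNNNGAA was found in 3 windows (7.895%), those of Cpt2, Hadha and Hadhb, against 8.30% of all windows. The Hadha and Hadhb matches are the same site in the bases that their windows share. For AGGTCA and CCAAT, Acot3 was counted once for each of its overlapping windows, which hold the same sites. A direct repeat of AGGNCA with 1 base between the copies, which can overlap AGGTCA, was found in 0 of the 38 windows, against 0.3805% of all windows. These matches describe letters within 300 bases and were not tested against the expression values.

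Library totals ran from 39844158 to 57926887 counts in siSTAT3, 55406038 to 67791159 in siCntrl, 50024153 to 61804382 in mASO STAT3 and 64619765 to 66498894 in mASO Scrbl, and each member had between 184 and 96043 counts in every library. Levels are given as CPM, counts scaled to the library total after TMM correction for composition. Tests are edgeR's quasi-likelihood test with Benjamini-Hochberg adjustment over 15720 genes, passed at an adjusted p under 0.05. Stat3 itself stood at 109.9 ± 16.2 CPM in siSTAT3 against 112 ± 7.501 CPM in siCntrl, and at 103 ± 13.7 CPM in mASO STAT3 against 99.2 ± 8.40 CPM in mASO Scrbl (SD, n = 3 each). Its log2 fold changes were −0.033 ± 0.14 and 0.052 ± 0.14 (edgeR adjusted p = 0.868 and 0.792), or −0.54 and −0.53 with scaling by library totals (adjusted p = 0.00446 and 0.00413), so that the direction of its level turns on the scaling in the mASO arm and does not check the labels. Whether replicates came from separate animals is not stated in the labels, so p-values measure the spread between the libraries as labelled, part of which may be technical. TMM factors lay between 0.804 and 0.901 in the libraries labelled STAT3 and between 1.11 and 1.27 in the controls. Scaling by library totals alone lowered the median of all genes by 0.49 in the siRNA arm and 0.58 in the mASO arm on the log2 scale, and changes are reported relative to the TMM-scaled level. The library mASO Scrbl 2 stood apart from its group in 5 members, Ehhadh, Pex11a, Acot1, Acot2 and Acot3, and the mASO arm's fold changes of these genes are also given without it.

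Markers of hepatocytes and of other liver cell types differed between the same groups. The 12 hepatocyte markers summed to 135895 to 150539 CPM in siSTAT3 against 49574 to 87347 CPM in siCntrl, and to 121763 to 162679 CPM in mASO STAT3 against 55908 to 85970.1 CPM in mASO Scrbl. Of them, 7 of 12 passed as higher in the siRNA arm and 11 of 12 in the mASO arm, with medians of 0.94 and 1.35 on the log2 scale, and with scaling by library totals 4 were higher and 1 lower in the siRNA arm and 6 higher in the mASO arm. Alb made up most of the hepatocyte sum in every library. With scaling by library totals Alb did not pass in either arm (0.41 and 0.25, edgeR adjusted p = 0.109 and 0.318). The 10 stellate and myofibroblast markers summed to 229.9 to 372 CPM in siSTAT3 against 1401 to 1883 CPM in siCntrl, and to 359.97 to 446 CPM in mASO STAT3 against 982 to 2146 CPM in mASO Scrbl. Of them 9 of 10 fell in the siRNA arm, and 7 fell and 1 rose in the mASO arm. The 9 monocyte and macrophage markers, of which 7 fell in the siRNA arm and 5 fell and 1 rose in the mASO arm, summed to 433 to 523 CPM in siSTAT3 against 1255 to 2278 CPM in siCntrl, and to 458 to 506 CPM in mASO STAT3 against 1087 to 1840.2 CPM in mASO Scrbl. The 7 cholangiocyte markers, of which 4 and 3 of the 6 tested fell, and 6 and 5 with scaling by library totals, summed to 95.6 to 153 CPM in siSTAT3 against 555 to 1395 CPM in siCntrl, and to 84.9 to 109.8 CPM in mASO STAT3 against 602 to 1339.99 CPM in mASO Scrbl. Spp1 is on both this list and the macrophage list, and it made up most of the cholangiocyte sum in every library. Its level was 91.1 ± 26.9 CPM in siSTAT3 against 969 ± 430 CPM in siCntrl (SD). In the mASO arm it was 71.3 ± 15.6 CPM in mASO STAT3 against 960 ± 370 CPM in mASO Scrbl. Of 6 endothelial markers 3 fell in the siRNA arm, and 3 fell and 1 rose in the mASO arm, while their sums overlapped between the groups of each arm, at 95.6 to 159 CPM in siSTAT3 against 130.1 to 162 CPM in siCntrl and 96.9 to 168 CPM in mASO STAT3 against 127 to 149.99 CPM in mASO Scrbl. The 4 adipocyte markers, 2 of them tested, summed to 96.4 to 131 CPM in siSTAT3 against 180.4 to 284 CPM in siCntrl and to 77.4 to 142 CPM in mASO STAT3 against 145 to 209 CPM in mASO Scrbl, while the defining adipocyte gene Adipoq was at 0 in both control groups and Plin1 at 0 in mASO STAT3. In bulk liver, fewer cells of a type and less RNA per cell cannot be told apart. The part of these cell types in the changes of the 39 genes was not tested.

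In the siRNA arm, siSTAT3 livers carried more mRNA of most peroxisomal members than siCntrl livers, and of 8 of the 19 mitochondrial members. The highest fold change belonged to Acot3, a peroxisomal acyl-CoA thioesterase, at 148 ± 26.6 CPM in siSTAT3 against 15.03 ± 5.39 CPM in siCntrl (SD, n = 3 each). Phyh, which starts alpha-oxidation, stood at 1605 ± 154 CPM in siSTAT3 against 424 ± 91.4 CPM in siCntrl. Cpt1a, Cpt2 and Slc25a20 of carnitine-dependent entry and Hadha and Hadhb did not pass. By edgeR's test 19 of the 39 members rose and 2 fell, Acox2 and Crat, where 22.4% of all tested genes were higher, 23.4% lower and 45.7% called in either direction. The members' median log2 fold change was 0.33, against −0.04 over all tested genes. The groups did not overlap for 53% of all tested genes in this arm and for 56.8% in the mASO arm. This is the background for each gene described as not overlapping between the groups of an arm. With scaling by library totals, 12 members were called higher and 12 lower, where 1655 of all 15720 genes were higher and 7266 lower, and in a fit of the siRNA arm alone 19 were higher and 5 lower, the added ones being Acot1, Acot2 and Pex11a.

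In the mASO arm, mASO STAT3 livers carried more mRNA of the same 19 genes than mASO Scrbl livers, and of 6 more. Acot3 stood at 122 ± 43.5 CPM in mASO STAT3 against 13.4 ± 8.75 CPM in mASO Scrbl (SD, n = 3 each), and Hacl1, the lyase of alpha-oxidation, at 385 ± 83.4 CPM in mASO STAT3 against 53.7 ± 2.45 CPM in mASO Scrbl. The carnitine shuttle genes Cpt1a, Cpt2, Slc25a20 and Crot, the medium-chain dehydrogenase Acadm and the isomerase Eci2 passed in this arm and not in the siRNA arm, and the difference between the arms did not pass edgeR's test for any of them. By edgeR's test 25 members rose and 1 fell, Acox2, where 21.3% of all tested genes were higher, 22.5% lower and 43.8% called in either direction. The members' median was 0.72, against −0.05 over all tested genes. With scaling by library totals, 18 members were called higher and 6 lower, where 1525 of all 15720 genes were higher and 7939 lower.

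**Figure D1:**
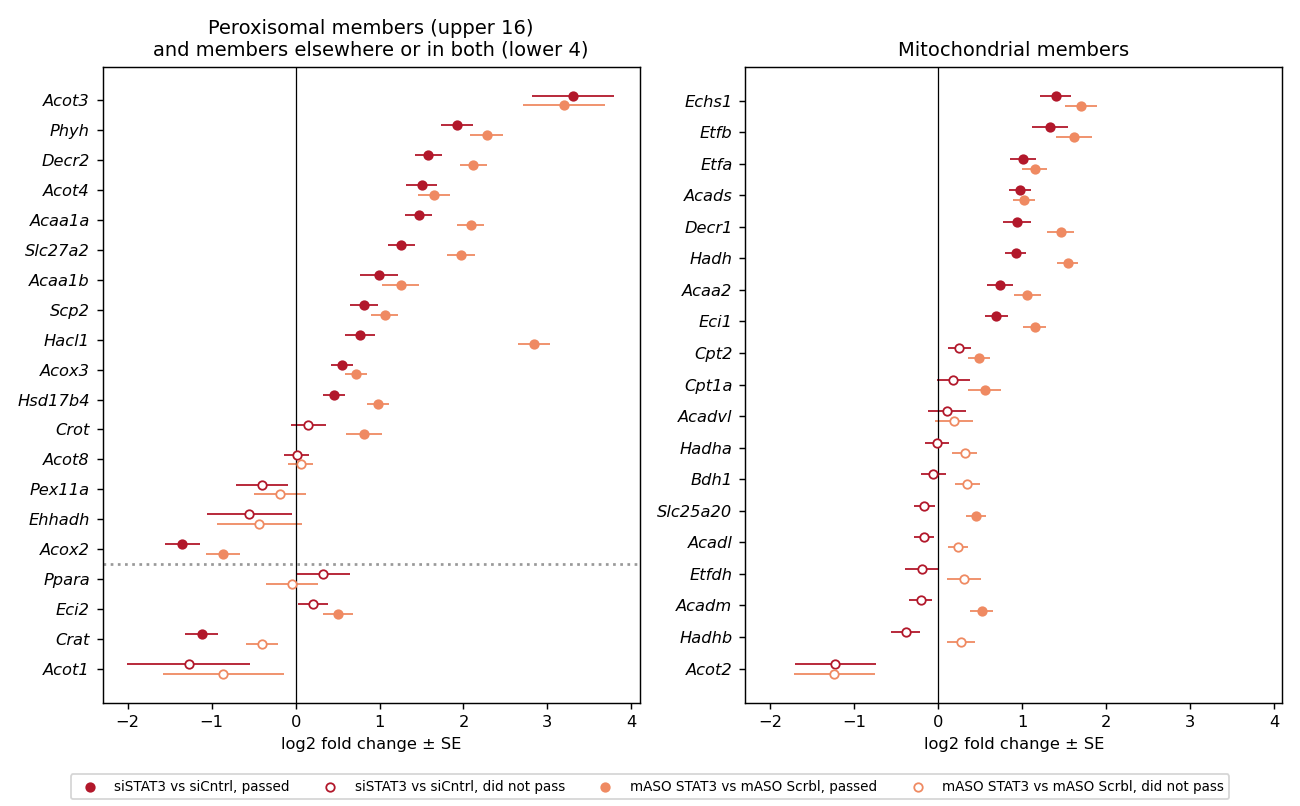
Log2 fold change ± SE of each of the 39 members in the siRNA arm (siSTAT3 over siCntrl, dark red) and the mASO arm (mASO STAT3 over mASO Scrbl, orange), from edgeR, with filled points for adjusted p under 0.05; peroxisomal members stand on the left, above a dotted line that sets off the 4 members placed elsewhere or in both, and mitochondrial members on the right. For siSTAT3 over siCntrl, 11 of 16 peroxisomal and 8 of 19 mitochondrial members rose, against 22.4% of all tested genes. For mASO STAT3 over mASO Scrbl, 12 of 16 and 12 of 19 rose, against 21.3%. Each time 1 peroxisomal and 0 mitochondrial members fell. Scaling by library totals gave 6 peroxisomal members higher and 3 lower, and 6 mitochondrial higher and 8 lower, for the siRNA pair. The mASO pair then had 10 peroxisomal higher and 3 lower, and 8 mitochondrial higher and 2 lower. Of all 15720 genes this scaling called 1655 higher and 7266 lower for the siRNA pair, and 1525 and 7939 for the mASO pair.

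Alpha-oxidation was represented by Phyh, the hydroxylase that acts on phytanoyl-CoA, and Hacl1, the lyase that removes the single carbon, and both rose in both arms, though Hacl1 did not pass in the siRNA arm with scaling by library totals (log2 fold change 0.29, edgeR adjusted p = 0.189). Phyh stood at 1699.6, 1427 and 1689 CPM in siSTAT3 livers against 451, 322 and 499.6 CPM in siCntrl livers. In the other arm it stood at 1451, 1749 and 1913 CPM in mASO STAT3 livers against 347, 299 and 409 CPM in mASO Scrbl livers. Every library labelled STAT3 lay above every control library, with no overlap. For Phyh the siRNA arm gave a log2 fold change of 1.92 ± 0.19 (edgeR adjusted p = 4.04e-06), while the mASO arm gave 2.28 ± 0.19 (adjusted p = 1.06e-06).

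Hacl1 was at 216, 195 and 205 CPM in siSTAT3 against 135, 88.3 and 139.8 CPM in siCntrl. Hacl1 stood at 329, 481 and 345 CPM in mASO STAT3 against 55.5, 50.9 and 54.7 CPM in mASO Scrbl. The 3 mASO Scrbl libraries lay below all siCntrl libraries and the 3 mASO STAT3 libraries above all siSTAT3 libraries. For these comparisons across the arms the share of all genes that did not overlap was not computed. The siRNA arm gave a log2 fold change of 0.76 ± 0.18 (edgeR adjusted p = 0.0036), while the mASO arm gave 2.84 ± 0.19 (adjusted p = 1.61e-07). In GENCODE vM21, 1540 of the 2644 exonic bases of Hacl1 are also in exons of Gm49387 on the same strand, which has no row in the counts, so reads of the shared bases could not be told apart.

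Peroxisomal supply was covered by Slc27a2, which activates very long-chain fatty acids and carries them in, and Pex11a, a membrane protein of peroxisome division. Slc27a2 stood at 1567, 1446 and 1518 CPM in siSTAT3 against 687, 647 and 556 CPM in siCntrl. In the mASO arm it stood at 1351, 1597 and 1933 CPM in mASO STAT3 against 363, 465 and 414 CPM in mASO Scrbl. No STAT3-labelled library overlapped a control, and the log2 fold changes were 1.26 ± 0.16 and 1.97 ± 0.17 (edgeR adjusted p = 3.59e-05 and 9.49e-07). Pex11a was at 94.9, 78.7 and 84.7 CPM in siSTAT3 against 117, 117 and 108 CPM in siCntrl. With mASO STAT3 iExos, Pex11a was at 115, 95.1 and 98.7 CPM, against 68.0, 202 and 81.2 CPM in mASO Scrbl. Its siSTAT3 libraries lay below all siCntrl libraries, and mASO Scrbl 2 lay above all others in the mASO arm. The log2 fold changes were −0.40 ± 0.31 and −0.18 ± 0.31 and did not pass (edgeR adjusted p = 0.308 and 0.656), and with scaling by library totals they were −0.90 and −0.77 and passed (adjusted p = 0.028 and 0.0491).

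Of the 7 members of the peroxisomal spiral, 5 rose and 1 fell in each arm, while 1 of the 7 rose in the siRNA arm and 4 in the mASO arm with scaling by library totals. Acaa1a, a ketoacyl-CoA thiolase of peroxisomes, stood at 357, 494 and 328 CPM in siSTAT3 against 144, 147 and 136 CPM in siCntrl. Acaa1a stood at 465, 365 and 422 CPM in mASO STAT3 against 101, 96.4 and 98.4 CPM in mASO Scrbl. Every library labelled STAT3 exceeded every control of its arm. Its paralog Acaa1b was at 876, 1116 and 1019 CPM in siSTAT3 against 568, 578 and 364 CPM in siCntrl. In mASO STAT3 livers Acaa1b was at 1298, 1253 and 1086 CPM, against 398, 689 and 441 CPM in mASO Scrbl. The STAT3-labelled libraries again lay above all controls of their arm. Acaa1a changed by 1.47 ± 0.16 and 2.09 ± 0.16 on the log2 scale (edgeR adjusted p = 7.66e-06 and 4.41e-07) and Acaa1b by 0.995 ± 0.22 and 1.25 ± 0.22 (adjusted p = 0.00245 and 0.000512), though with scaling by library totals Acaa1b did not pass in the siRNA arm (0.49, adjusted p = 0.0866). The longest reading frames of the 2 thiolases are identical at 96.55% of bases, with an identical run of 327 bases, so the split of reads between them is uncertain.

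Hsd17b4, the D-bifunctional enzyme that carries out the hydratase and dehydrogenase steps for branched and very long chains, was at 386, 323 and 379 CPM in siSTAT3 against 290.4, 260.1 and 242 CPM in siCntrl. The gene was at 406, 467 and 457 CPM in mASO STAT3 against 208, 236 and 229 CPM in mASO Scrbl. The groups of each arm did not overlap. Hsd17b4 rose by 0.46 ± 0.13 and 0.98 ± 0.13 on the log2 scale (edgeR adjusted p = 0.0107 and 4.45e-05), but turned to −0.037 in the siRNA arm with scaling by library totals. Acox3, a branched-chain oxidase, was at 32.6, 36.9 and 36.7 CPM in siSTAT3 against 21.2, 27.0 and 24.1 CPM in siCntrl. Its levels were 30.3, 35.4 and 34.7 CPM in mASO STAT3 against 20.2, 18.3 and 22.4 CPM in mASO Scrbl. Again all libraries labelled STAT3 lay above the controls of their arm, and Acox3 rose by 0.56 ± 0.13 and 0.72 ± 0.13 (edgeR adjusted p = 0.0036 and 0.000591). With scaling by library totals Acox3 passed in neither arm (0.051 and 0.15). In GENCODE vM21, 700 of its 6865 exonic bases lie opposite exons of 4931431C16Rik. Scp2, whose long form is a thiolase for branched chains, rose by 0.81 and 1.06, and did not pass in the siRNA arm with scaling by library totals (0.33, edgeR adjusted p = 0.0699).

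Acox2, the oxidase that shortens the side chain of bile acid intermediates and branched acids, went the other way. It was at 122, 115 and 122 CPM in siSTAT3 against 411, 251.3 and 252 CPM in siCntrl. Acox2 stood at 177, 153 and 126 CPM in mASO STAT3 against 336, 231 and 265 CPM in mASO Scrbl. All libraries labelled STAT3 were below all controls. For Acox2 the siRNA arm gave a log2 fold change of −1.35 ± 0.20 (edgeR adjusted p = 0.000139), while the mASO arm gave −0.87 ± 0.20 (adjusted p = 0.00349). Ehhadh, the L-bifunctional enzyme and a standard PPARA target, was at 282, 181 and 328 CPM in siSTAT3 against 532, 420.3 and 209 CPM in siCntrl. With mASO STAT3 iExos, Ehhadh was at 278, 298 and 317 CPM, against 235, 791 and 181 CPM in mASO Scrbl. The groups overlapped in both arms and the controls spread widely, with log2 fold changes of −0.55 ± 0.51 and −0.43 ± 0.51 (edgeR adjusted p = 0.402 and 0.52). Without mASO Scrbl library 2, Ehhadh turned to 0.51 in the mASO arm (edgeR adjusted p = 0.255).

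**Figure D2:**
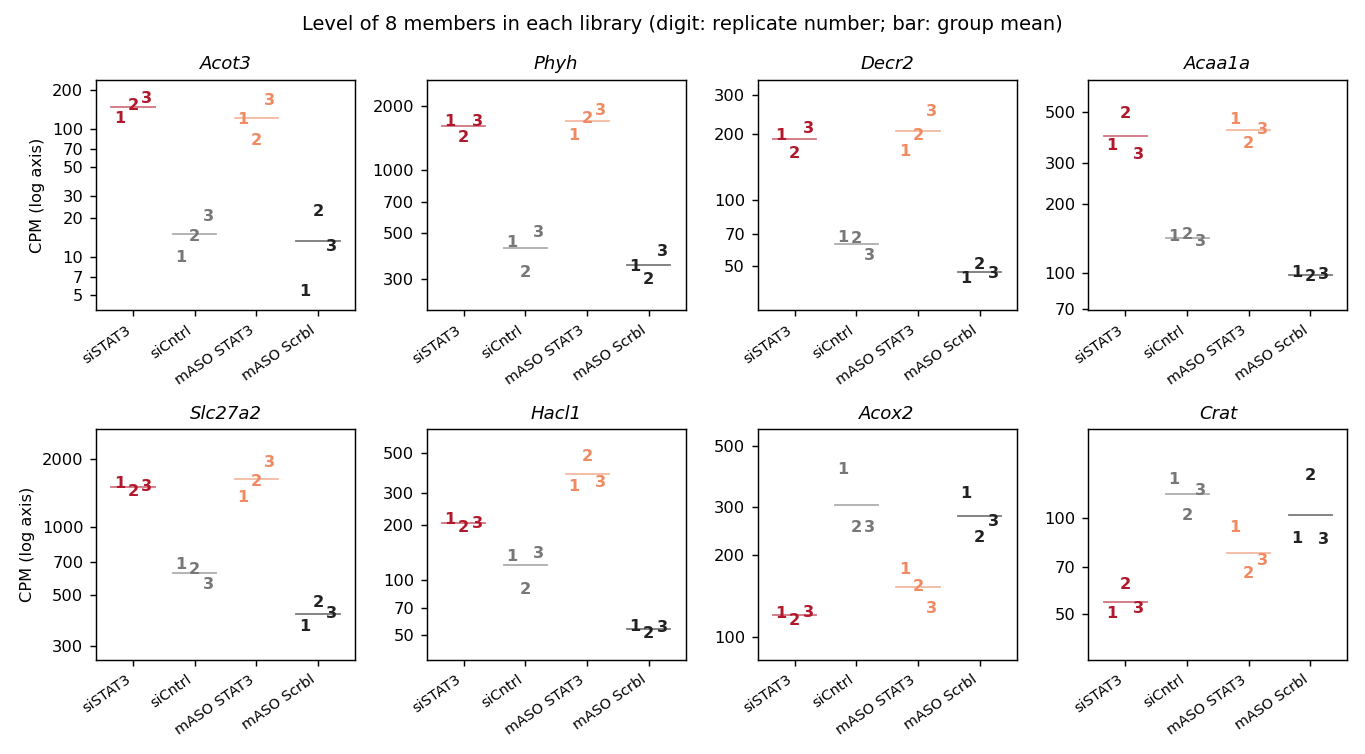
Level of 8 members in each of the 12 libraries, as CPM on log axes, with the replicate number as the point and a bar at the group mean; each STAT3-labelled group stands left of its control. The groups of each arm do not overlap in Acot3, Phyh, Decr2, Acaa1a, Slc27a2, Hacl1 and Acox2, and Crat does not overlap in the siRNA arm only.

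The acyl-CoA thioesterases, which release free fatty acids from CoA, split within their gene cluster. In RefSeq's order Acot2, Acot1, Acot4, Acot3, Acot5 and Acot6 are neighbours. Acot3, a peroxisomal long-chain thioesterase, was at 119.8, 152 and 173 CPM in siSTAT3 against 9.94, 14.5 and 20.7 CPM in siCntrl. Acot3 stood at 119, 80.4 and 167 CPM in mASO STAT3 against 5.35, 22.7 and 12.02 CPM in mASO Scrbl. All 6 libraries labelled STAT3 were above all 6 controls. Acot4, which acts on dicarboxylic and succinyl-CoA esters in peroxisomes, was at 33.5, 26.6 and 35.97 CPM in siSTAT3 against 11.2, 9.89 and 12.8 CPM in siCntrl. In mASO STAT3 livers Acot4 was at 34.2, 27.0 and 40.4 CPM, against 9.13, 13.2 and 10.1 CPM in mASO Scrbl. Its groups did not overlap in either arm. Acot3 rose 9.86-fold in the siRNA arm and 9.15-fold in the mASO arm, log2 fold changes of 3.30 ± 0.49 and 3.19 ± 0.49 (edgeR adjusted p = 0.00028 and 0.000358). Acot4 rose by 1.5004 ± 0.19 and 1.65 ± 0.19 on the log2 scale (edgeR adjusted p = 2.91e-05 and 1.34e-05).

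Next to them, the cytosolic Acot1 and the mitochondrial Acot2 had lower means in the STAT3-labelled groups and did not pass, and in the mASO arm the direction of Acot1 rested on mASO Scrbl library 2. Acot1 was at 4.68, 4.73 and 6.39 CPM in siSTAT3 against 5.96, 22.3 and 9.88 CPM in siCntrl. Acot1 stood at 10.3, 5.95 and 6.98 CPM in mASO STAT3 against 2.86, 31.4 and 7.84 CPM in mASO Scrbl. The groups overlapped in both arms. Acot2 was at 6.64, 6.74 and 6.91 CPM in siSTAT3 against 12.7, 20.2 and 14.6 CPM in siCntrl. With mASO STAT3 iExos, Acot2 was at 9.40, 6.39 and 11.05 CPM, against 7.99, 41.9 and 13.4 CPM in mASO Scrbl. In both genes the controls spread widely, library 2 of each control group was the highest of its group, and the siRNA groups did not overlap in Acot2. The log2 fold changes of Acot1 were −1.27 ± 0.73 and −0.86 ± 0.72 (edgeR adjusted p = 0.181 and 0.362), and without the highest control library, number 2 in each arm, they were −0.59 and 0.53 (adjusted p = 0.583 and 0.468), so that the mASO value turned. Those of Acot2 were −1.23 ± 0.49 and −1.24 ± 0.48 (edgeR adjusted p = 0.0587 and 0.056), and Acot2 passed as lower in both arms with DESeq2's Wald test (adjusted p = 0.0122 and 0.0135) and with scaling by library totals (−1.74 and −1.84, edgeR adjusted p = 0.0106 and 0.00676), and in the mASO arm without mASO Scrbl library 1, at −1.63 (edgeR adjusted p = 0.0051), or library 3, at −1.48 (adjusted p = 0.0424), while without mASO Scrbl library 2 it was −0.26 (adjusted p = 0.481). The coding frames of Acot1 and Acot2 are identical at 95.48% of aligned bases, against 83.97% for Acot1 and Acot3 and 75.2% for Acot3 and Acot4, so the split of reads within the first pair is uncertain. In GENCODE vM21, 312 exonic bases of Acot3 and 615 of Acot4 also lie opposite exons of 4732463B04Rik, and the use of strand in counting is not known. Acot8, a thioesterase of peroxisomes with broad substrates, had log2 fold changes of 0.012 ± 0.15 and 0.063 ± 0.15 (95% intervals −0.31 to 0.33 and −0.26 to 0.38) and turned to −0.48 and −0.52 with scaling by library totals.

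Of the carnitine shuttle, Cpt1a of the outer mitochondrial membrane, the rate-controlling step of entry, was at 533, 440.4 and 561 CPM in siSTAT3 against 562, 444 and 351 CPM in siCntrl. Cpt1a stood at 409.9, 421 and 597 CPM in mASO STAT3 against 282, 359 and 331 CPM in mASO Scrbl. Overlap was seen in the siRNA arm and not in the mASO arm. The siRNA arm gave a log2 fold change of 0.18 ± 0.20 (95% interval −0.24 to 0.60, edgeR adjusted p = 0.485), while the mASO arm gave 0.55 ± 0.20 (adjusted p = 0.0339). Without mASO STAT3 library 3 the mASO arm gave 0.36 (edgeR adjusted p = 0.184), and the call was also lost without mASO Scrbl library 1 or 3 (adjusted p = 0.123 and 0.0679). Cpt2, the transferase of the inner membrane, was at 174, 191 and 172 CPM in siSTAT3 against 173, 143 and 135 CPM in siCntrl. Levels of Cpt2 were 237, 201 and 209 CPM in mASO STAT3 against 149.6, 173 and 140.1 CPM in mASO Scrbl. The siRNA groups overlapped and the mASO groups did not. Slc25a20, the carrier that brings acylcarnitines across that membrane, was at 116, 111 and 108 CPM in siSTAT3 against 126, 120.0 and 129 CPM in siCntrl. Levels of Slc25a20 were 139.8, 111 and 139.8 CPM in mASO STAT3 against 89.5, 104 and 93.1 CPM in mASO Scrbl. The siSTAT3 libraries lay below all siCntrl libraries, and the mASO STAT3 libraries above all mASO Scrbl libraries. Cpt2, Slc25a20 and the peroxisomal octanoyltransferase Crot rose by 0.48, 0.45 and 0.81 in the mASO arm (edgeR adjusted p = 0.00981, 0.00811 and 0.0066), where Cpt1a, Cpt2 and Slc25a20 turned to −0.033, −0.098 and −0.14 with scaling by library totals and Crot no longer passed (0.24, adjusted p = 0.364). In the siRNA arm Cpt2, Slc25a20 and Crot had log2 fold changes of 0.25, −0.16 and 0.15 and did not pass. With scaling by library totals Slc25a20 passed as lower there, at −0.66 (edgeR adjusted p = 0.000242).

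Crat, which exchanges acetyl groups between carnitine and CoA, was the only shuttle gene called lower with TMM scaling, in the siRNA arm. It was at 50.2, 61.7 and 52.2 CPM in siSTAT3 against 132, 102 and 122 CPM in siCntrl. In mASO STAT3 livers Crat was at 93.2, 66.8 and 73.4 CPM, against 86.1, 136 and 85.4 CPM in mASO Scrbl. The siSTAT3 libraries lay below all siCntrl libraries, while the mASO groups overlapped. For Crat the siRNA arm gave a log2 fold change of −1.12 ± 0.19 (edgeR adjusted p = 0.000355), while the mASO arm gave −0.40 ± 0.19 (adjusted p = 0.106), where scaling by library totals gave −0.99 (adjusted p = 0.000372).

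Of the 9 members of the mitochondrial spiral, 4 rose in the siRNA arm and 5 in the mASO arm, and 0 fell, while with scaling by library totals 3 rose and 4 fell in the siRNA arm and 4 rose and 1 fell in the mASO arm. The long-chain and medium-chain dehydrogenases Acadvl, Acadl and Acadm and both trifunctional subunits, Hadha and Hadhb, had log2 fold changes from −0.39 (Hadhb) to 0.11 (Acadvl) in the siRNA arm, and none passed. In the mASO arm they ran from 0.18 (Acadvl) to 0.52 (Acadm), and Acadm passed (edgeR adjusted p = 0.00717), though Acadm turned to −0.067 and Acadl to −0.35 (adjusted p = 0.0224) with scaling by library totals. Of the 2168 exonic bases of Acadvl in GENCODE vM21, 976 lie opposite exons of Dvl2, and the use of strand in counting is not known. Acadm was at 369.5, 308 and 383 CPM in siSTAT3 against 434, 407 and 386 CPM in siCntrl. Levels of Acadm were 451, 431 and 469.8 CPM in mASO STAT3 against 272, 331 and 343 CPM in mASO Scrbl. The siSTAT3 libraries lay below all siCntrl libraries, and the mASO STAT3 libraries above all mASO Scrbl libraries. Hadha was at 457, 446 and 474 CPM in siSTAT3 against 490.0, 464 and 436 CPM in siCntrl. Hadha stood at 458, 479.6 and 503 CPM in mASO STAT3 against 328, 472 and 359 CPM in mASO Scrbl. The groups overlapped in both arms. The siRNA arm gave a log2 fold change of −0.014 ± 0.14 (95% interval −0.32 to 0.29), while the mASO arm gave 0.31 ± 0.14 (0.0052 to 0.62), and it passed in the mASO arm with DESeq2's Wald test (adjusted p = 0.0367). Without mASO Scrbl library 2, the highest of its group, Hadha and Hadhb passed in the mASO arm at 0.48 and 0.46 (edgeR adjusted p = 0.0139 and 0.0446), and without siSTAT3 library 1 Hadhb passed as lower in the siRNA arm at −0.52 (adjusted p = 0.0434).

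The other 4, Acads, Hadh, Echs1 and Acaa2, rose in both arms. Echs1, the short-chain enoyl-CoA hydratase, was at 382, 331 and 373 CPM in siSTAT3 against 149.7, 97.2 and 164 CPM in siCntrl. With mASO STAT3 iExos, Echs1 was at 422, 356 and 435 CPM, against 143, 108 and 123 CPM in mASO Scrbl. Its groups did not overlap, and it rose by 1.401 ± 0.19 and 1.70 ± 0.19 on the log2 scale (edgeR adjusted p = 4.43e-05 and 8.98e-06). Acads, the short-chain acyl-CoA dehydrogenase, rose by 0.97 ± 0.13 and 1.02 ± 0.13, Hadh, the short-chain hydroxyacyl-CoA dehydrogenase, by 0.92 ± 0.12 and 1.54 ± 0.12, and the thiolase Acaa2 by 0.73 ± 0.15 and 1.06 ± 0.16 (edgeR adjusted p at most 0.00168). Acaa2 was at 1318, 1587 and 1287 CPM in siSTAT3 against 867, 784 and 874 CPM in siCntrl. Levels of Acaa2 were 1669, 1278 and 1527 CPM in mASO STAT3 against 668, 658 and 816 CPM in mASO Scrbl. The groups did not overlap in either arm. Of these 4 genes, Acaa2 did not pass in the siRNA arm with scaling by library totals (0.24, edgeR adjusted p = 0.142).

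All 4 members that handle double bonds rose in the mASO arm and 3 of the 4 in the siRNA arm. Decr2, the dienoyl-CoA reductase of peroxisomes, was at 195, 162 and 210.0 CPM in siSTAT3 against 67.4, 66.7 and 55.9 CPM in siCntrl. Decr2 stood at 166, 197 and 251.2 CPM in mASO STAT3 against 44.1, 50.8 and 46.5 CPM in mASO Scrbl. No library labelled STAT3 overlapped a control, and Decr2 rose by 1.58 ± 0.16 and 2.12 ± 0.16 on the log2 scale (edgeR adjusted p = 5.13e-06 and 4.78e-07). Its mitochondrial counterpart Decr1 rose by 0.94 and 1.46. The mitochondrial isomerase Eci1 was at 172, 184 and 163 CPM in siSTAT3 against 119, 85.3 and 117 CPM in siCntrl. Levels of Eci1 were 216, 203 and 225 CPM in mASO STAT3 against 87.9, 104 and 98.3 CPM in mASO Scrbl. Its groups did not overlap, and Eci1 rose by 0.69 ± 0.14 and 1.15 ± 0.14 (edgeR adjusted p = 0.00123 and 2.37e-05), not passing in the siRNA arm with scaling by library totals (0.21, edgeR adjusted p = 0.155). Eci2, the isomerase of both organelles, was at 243, 257 and 233 CPM in siSTAT3 against 207, 210.2 and 217 CPM in siCntrl. Levels of Eci2 were 263, 184 and 235 CPM in mASO STAT3 against 119.5, 208 and 153 CPM in mASO Scrbl. Overlap was seen in the mASO arm and not in the siRNA arm, where the log2 fold change was 0.21 ± 0.18 (edgeR adjusted p = 0.372). In the mASO arm Eci2 passed at 0.51 ± 0.18 (edgeR adjusted p = 0.0357), turned to −0.084 with scaling by library totals, and lost the call without mASO STAT3 library 1 or 3 and without mASO Scrbl library 1 or 3 (0.33 to 0.48, adjusted p = 0.093 to 0.158).

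Of the electron transfer genes, Etfa and Etfb, the subunits of the flavoprotein that takes electrons from the dehydrogenases, rose by 1.01 ± 0.15 and 1.33 ± 0.21 in the siRNA arm and by 1.15 ± 0.15 and 1.62 ± 0.22 in the mASO arm (edgeR adjusted p at most 0.000223). In GENCODE vM21, 617 of the 893 exonic bases of Etfb are also in exons of Gm45233 on the same strand. Etfdh, the membrane enzyme that passes these electrons on to ubiquinone, had log2 fold changes of −0.19 ± 0.20 and 0.30 ± 0.20 and did not pass (edgeR adjusted p = 0.464 and 0.245).

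Bdh1, the mitochondrial dehydrogenase that makes hydroxybutyrate from acetoacetate, was at 483, 574 and 532 CPM in siSTAT3 against 624, 525 and 504 CPM in siCntrl. In mASO STAT3 livers Bdh1 was at 580.2, 435 and 575 CPM, against 412, 397 and 444 CPM in mASO Scrbl. The groups overlapped in both arms. For Bdh1 the siRNA arm gave a log2 fold change of −0.058 ± 0.15 (95% interval −0.38 to 0.26, edgeR adjusted p = 0.773), while the mASO arm gave 0.35 ± 0.15 (0.026 to 0.66, adjusted p = 0.0741). Bdh1 passed as higher in the mASO arm with DESeq2's Wald test (adjusted p = 0.0305) and without mASO STAT3 library 2 (0.47, edgeR adjusted p = 0.0254), and as lower in the siRNA arm with scaling by library totals (−0.55, adjusted p = 0.00233). Of 5 other ketone body genes 2 rose and 1 fell in the siRNA arm and 3 rose in the mASO arm, and with scaling by library totals 0 rose and 1 fell, and 2 rose and 2 fell. Oxct1, which uses ketone bodies and is low in hepatocytes, fell by 1.07 in the siRNA arm (edgeR adjusted p = 0.00142) and was at −0.27 ± 0.22 in the mASO arm (adjusted p = 0.347), where scaling by library totals gave −0.84 (adjusted p = 0.00848).

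Ppara was at 49.6, 28.3 and 57.7 CPM in siSTAT3 against 56.7, 29.4 and 21.6 CPM in siCntrl. Ppara stood at 34.7, 38.8 and 43.3 CPM in mASO STAT3 against 43.3, 38.8 and 38.3 CPM in mASO Scrbl. The groups overlapped in both arms, and siCntrl library 1 was the highest of its group. The siRNA arm gave a log2 fold change of 0.33 ± 0.31 (95% interval −0.34 to 1.01, edgeR adjusted p = 0.411), while the mASO arm gave −0.043 ± 0.31 (−0.72 to 0.63, adjusted p = 0.924), and without siCntrl library 1 the siRNA arm gave 0.83 (adjusted p = 0.0178). Of 10 other genes of PPAR regulation, among them the receptors Ppard and Pparg, their Rxr partners and coregulators, 5 rose in the siRNA arm (3 without siCntrl library 2) and 4 in the mASO arm, and with scaling by library totals 2 rose in each arm and 2 fell in the mASO arm. The coactivator Ppargc1b rose by 2.29 ± 0.29 and 0.98 ± 0.28 (edgeR adjusted p = 3.4e-05 and 0.0126), the mASO arm not passing without mASO STAT3 library 1 or mASO Scrbl library 3 (adjusted p = 0.0505 and 0.0539) or with scaling by library totals (0.40, adjusted p = 0.278). Ppargc1a, its better known relative, had log2 fold changes of 0.12 ± 0.45 and 0.68 ± 0.45 and did not pass (edgeR adjusted p = 0.848 and 0.247).

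Genes that PPARA is known to raise outside the 39 did not move in 1 direction. Of 11 other PPARA targets, 2 rose and 6 fell in the siRNA arm and 3 rose and 4 fell in the mASO arm (median −1.14 and −0.70), and without mASO Scrbl library 2 the mASO arm had 4 higher and 2 lower. Scaling by library totals gave 1 higher and 7 lower in the siRNA arm and 1 higher and 6 lower in the mASO arm. Plin2, a coat protein of lipid droplets, stood at 245 ± 39.1 CPM in siSTAT3 against 2401 ± 486 CPM in siCntrl and at 348 ± 17.9 CPM in mASO STAT3 against 2788 ± 1055 CPM in mASO Scrbl, log2 fold changes of −3.29 ± 0.25 and −3.004 ± 0.25 (edgeR adjusted p = 4.47e-07 and 9.2e-07). Vnn1, a pantetheinase that takes part in CoA turnover, fell too, with −2.59 ± 0.37 and −1.93 ± 0.36 (edgeR adjusted p = 0.000135 and 0.000963). Pdk4, a kinase that turns off pyruvate dehydrogenase, changed by −2.16 ± 0.40 in the siRNA arm (edgeR adjusted p = 0.00098) and was at −0.70 ± 0.38 in the mASO arm (adjusted p = 0.16), where it passed without mASO Scrbl library 1 at −1.07 (adjusted p = 0.0087) and with scaling by library totals at −1.29 (adjusted p = 0.0145), and was at −0.047 without mASO Scrbl library 2 (adjusted p = 0.912). Fgf21, a fasting hormone of the liver, had between 0.247 and 4.24 CPM in all 12 libraries, with log2 fold changes of −2.71 ± 0.64 and −1.12 ± 0.60 (edgeR adjusted p = 0.00354 and 0.149), while in the mASO arm it was −0.52 without mASO Scrbl library 2 (adjusted p = 0.541) and passed with scaling by library totals at −1.73 (adjusted p = 0.0209). Acot12, a cytosolic acetyl-CoA hydrolase, rose by 0.84 and 0.96, the first of which did not pass with scaling by library totals (0.36, edgeR adjusted p = 0.0593).

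The other genes of the 2 organelles were described by lists. Of 18 other genes of peroxisomal oxidation that were tested, 13 rose and 0 fell in the siRNA arm (median 0.94) and 13 rose and 2 fell in the mASO arm (median 1.37), and with scaling by library totals 10 rose and 4 fell, and 12 rose and 4 fell. The 2 lower calls in the mASO arm became 0 without mASO STAT3 library 1 or 2 or mASO Scrbl library 1 or 2, and 1 without library 3 of either group. Cat, the catalase that removes peroxide made by the oxidases, stood at 2797 ± 573 CPM in siSTAT3 against 460.1 ± 88.6 CPM in siCntrl and at 2701 ± 412 CPM in mASO STAT3 against 348 ± 68.7 CPM in mASO Scrbl. Its log2 fold changes were 2.60 ± 0.22 and 2.96 ± 0.22, and those of the enoyl-CoA reductase Pecr were 2.48 ± 0.17 and 2.78 ± 0.17 (edgeR adjusted p at most 9.54e-07). Ephx2, an epoxide hydrolase, rose by 1.58 and 2.14.

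Of 15 genes of peroxisome assembly, 9 rose in the siRNA arm and 10 in the mASO arm, and 0 fell (median 0.58 in each), while scaling by library totals gave 4 higher and 3 lower, and 5 and 5. Pex26, which anchors the export machinery, rose by 1.89 and 1.71, Pex6, an ATPase of that machinery, by 1.23 and 1.07, Pex11g by 1.15 and 1.51 and Pex7, the receptor that imports Phyh and thiolase, by 0.89 and 1.25 (edgeR adjusted p at most 0.000496 for the 4 genes in both arms). Of 14 other mitochondrial genes tested, 7 rose and 2 fell in the siRNA arm (median 0.54) and 9 rose and 1 fell in the mASO arm (median 1.15), and with scaling by library totals 6 rose and 3 fell, and 8 and 3. The dehydrogenases Acad10, Acadsb and Hsd17b10 rose by 2.50, 1.69 and 1.65 in the siRNA arm and by 2.10, 1.56 and 1.55 in the mASO arm, while the thioesterase Acot9 changed by −2.10 and −2.29.

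The peroxisomal and mitochondrial members were then set side by side. The median log2 fold change of the 16 peroxisomal members was 0.79 in the siRNA arm and 1.16 in the mASO arm, against 0.18 and 0.52 for the 19 mitochondrial members. For each library, log2(CPM + 0.5) of every member was centred on its mean over the 12 libraries, and the median over mitochondrial members was subtracted from the median over peroxisomal members. This value was 0.12, 0.25 and 0.24 in siSTAT3 against −0.35, −0.13 and −0.30 in siCntrl, and 0.27, 0.32 and 0.23 in mASO STAT3 against −0.28, −0.27 and −0.44 in mASO Scrbl. All libraries labelled STAT3 were above 0 and all controls below it. The group means were 0.20 ± 0.07 in siSTAT3 and −0.26 ± 0.11 in siCntrl, a difference of 0.46, and 0.28 ± 0.04 in mASO STAT3 and −0.33 ± 0.10 in mASO Scrbl, a difference of 0.61 (SD, n = 3 each). With TMM scaling the medians of both organelles were higher in the STAT3-labelled groups, with peroxisomal medians of 0.42 ± 0.04 in siSTAT3 and −0.40 ± 0.15 in siCntrl and mitochondrial medians of 0.22 ± 0.07 in siSTAT3 and −0.14 ± 0.20 in siCntrl. In the mASO arm the peroxisomal medians were 0.56 ± 0.03 in mASO STAT3 and −0.67 ± 0.12 in mASO Scrbl, and the mitochondrial ones 0.29 ± 0.07 in mASO STAT3 and −0.34 ± 0.10 in mASO Scrbl. Without the thioesterases the differences were 0.33 and 0.48, and with Eci2 and Crat counted as peroxisomal 0.32 and 0.46. Since the members were chosen with results of these data known, no p was computed for this value.

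**Figure D3:**
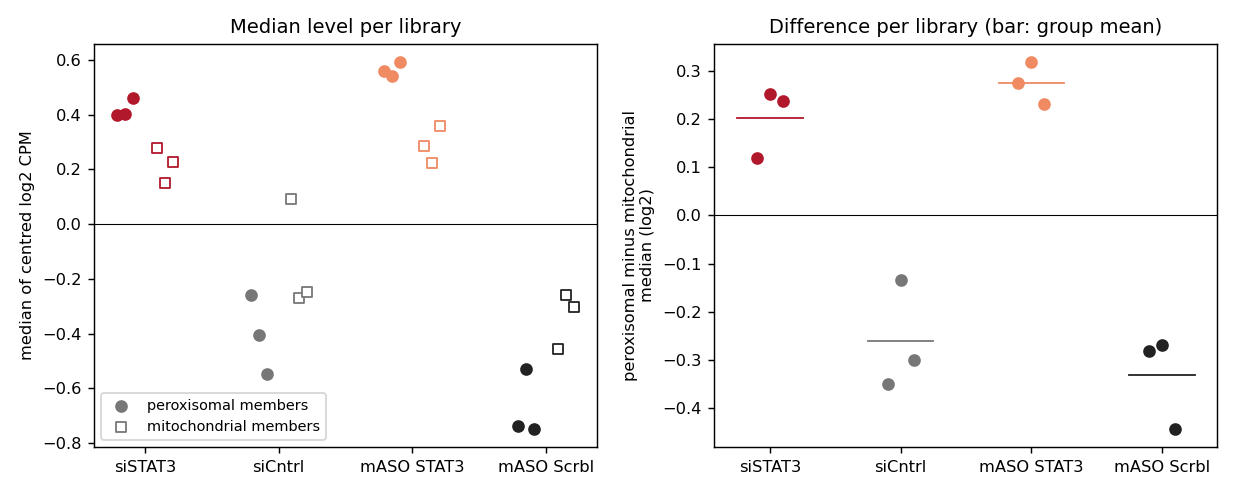
Left, median over peroxisomal members (filled circles) and mitochondrial members (open squares) of log2 CPM centred per gene, in each of the 12 libraries; right, the peroxisomal minus the mitochondrial median per library, with a bar at the group mean. The right panel runs from 0.12 to 0.32 in the 6 libraries labelled STAT3 and from −0.44 to −0.13 in the 6 controls.

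With scaling by library totals the median of the peroxisomal members was 0.31 in the siRNA arm and 0.58 in the mASO arm, and that of the mitochondrial members −0.32 and −0.07. Of the 19 mitochondrial members, 8 rose with TMM scaling in the siRNA arm, namely Acads, Hadh, Echs1, Acaa2, Eci1, Decr1, Etfa and Etfb, and 0 fell. The other 11 were Cpt1a, Cpt2, Slc25a20, Acadvl, Acadl, Acadm, Hadha, Hadhb, Etfdh, Acot2 and Bdh1. Under library totals 8 of these 11 were called lower in the siRNA arm, at −0.51 or below, where 7266 of all 15720 genes were called lower and the median of all genes was −0.53.

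Levels were compared between genes only per kilobase of exonic length in GENCODE vM21. In siSTAT3 livers Phyh was the highest member at 1116 CPM per kb, followed by Acaa2 at 922 and Etfb at 895, while in siCntrl livers Acaa2 led at 555, followed by Etfb at 356 and Scp2 at 320.1. With mASO STAT3 iExos, Phyh was at 1185 CPM per kb and in mASO Scrbl livers at 245. The 4 lowest members per kb in siSTAT3 were Acot1 at 2.32, Acot2 at 3.08, Acox3 at 5.16 and Acot4 at 5.16. Acot3 was at 43.1 CPM per kb in siSTAT3 against 4.37 in siCntrl and at 35.6 in mASO STAT3 against 3.89 in mASO Scrbl, while Acot1 was at 2.32 in siSTAT3 against 5.60 in siCntrl and at 3.40 in mASO STAT3 against 6.17 in mASO Scrbl.

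The difference between the arms, the mASO change minus the siRNA change, passed for 1 gene of 15720 (0.00636%), and that gene was Hacl1. The difference was 2.08 ± 0.26 on the log2 scale (95% interval 1.52 to 2.63, edgeR adjusted p = 0.0216). Hacl1 in mASO Scrbl was −1.17 ± 0.18 relative to siCntrl (edgeR adjusted p = 0.0683) and in mASO STAT3 0.91 ± 0.18 relative to siSTAT3 (adjusted p = 0.216), neither of which passed. The value ran from 2.04 to 2.15 without each of siSTAT3 library 2 or 3, mASO STAT3 library 3 and mASO Scrbl library 2 or 3, but the call was lost in each of these 5 fits (edgeR adjusted p = 0.0528 to 0.128). Neighbouring genes, looked up after this result was seen, did not pass, with differences of 0.38 ± 0.16 for Btd, −0.051 ± 0.29 for Eaf1 and −0.57 ± 0.33 for Ankrd28 (edgeR adjusted p = 0.673, 0.981 and 0.727). Phyh, the partner of Hacl1 in alpha-oxidation, had a difference of 0.36 ± 0.26 (95% interval −0.21 to 0.92, edgeR adjusted p = 0.78).

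Over the 39 members the median difference between the arms was 0.36, against −0.01 over all tested genes, and 14 members had an unadjusted p under 0.05, as did 1161 of all 15720 genes. After Hacl1 the highest were Acadm at 0.73 ± 0.19, Crat at 0.72 ± 0.27 and Slc27a2 at 0.71 ± 0.23 (edgeR adjusted p = 0.53, 0.643 and 0.615). With DESeq2's Wald test 3 members passed, Hacl1, Acadm and Hadh, where 44 of all genes were higher and 17 lower.

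Between the controls, mASO Scrbl against siCntrl, edgeR called 0 members, where 0.0127% of all tested genes passed, and 12 members had an unadjusted p under 0.05, as did 1234 of all 15720 genes. The members' median was −0.24, against 0.01 over all genes, and after Hacl1 the lowest were Slc27a2 at −0.61 ± 0.16 and Acaa1a at −0.53 ± 0.15 (edgeR adjusted p = 0.411 and 0.502). DESeq2's Wald test called 2 members lower, Hacl1 and Slc27a2, where 24 of all genes were higher and 55 lower. Between the STAT3 groups, mASO STAT3 against siSTAT3, edgeR called 0 members and 0% of all genes. Here 6 members and 919 of all 15720 genes had an unadjusted p under 0.05. DESeq2 called 1 member higher, Hacl1, where 59 of all genes were higher and 19 lower. The members' median was 0.15, against 0.00 over all genes. The 2 arm comparisons and these 2 comparisons share libraries and are not independent.

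One control library stood apart in these genes. In mASO Scrbl library 2, 5 of the 39 members (12.8%) lay more than 2-fold above the mean of the other libraries of its group (0.5 CPM added to each), namely Ehhadh, Pex11a, Acot1, Acot2 and Acot3, against 0.439% of all tested genes. This library was the highest of its group for 24 of the 39 members and for all 11 other PPARA targets, 4 of them by more than 2-fold, while it was the highest for 37.2% of all tested genes. The count of 24 members does not by itself set this library apart. In their own groups, siCntrl library 1 was the highest for 22 members and mASO STAT3 library 3 for 20.

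Without mASO Scrbl library 2, Pex11a turned to 0.46 and passed in the mASO arm (edgeR adjusted p = 0.0226), Acot3 was at 3.81 (adjusted p = 0.000109), Crat at −0.14 (adjusted p = 0.533), and 28 members were higher and 1 lower. In siCntrl, library 1 was more than 2-fold above the others for Ppara and library 2 for Acot1, and none of the other 9 libraries had such a member.

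**Figure D4:**
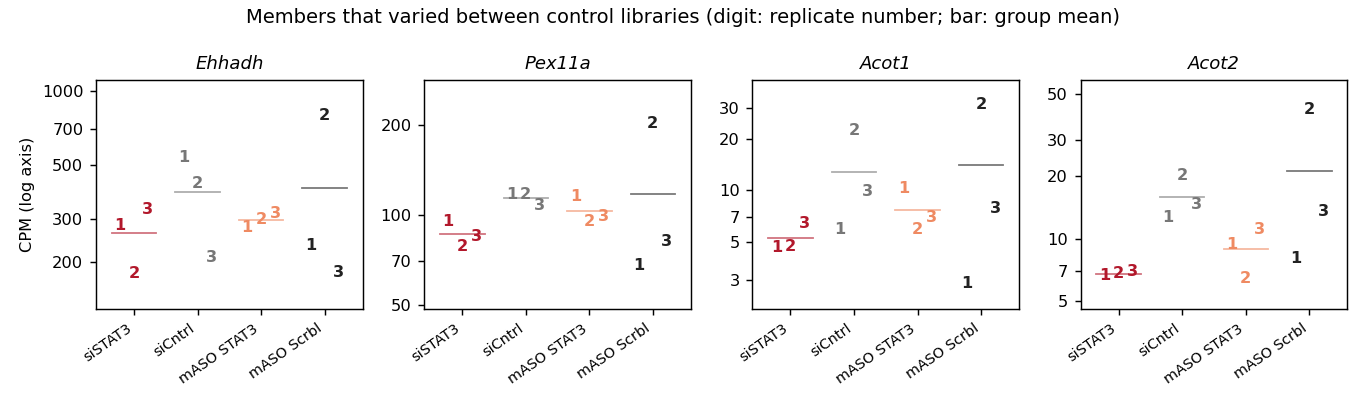
Level of Ehhadh, Pex11a, Acot1 and Acot2 in each of the 12 libraries, as CPM on log axes, with the replicate number as the point and a bar at the group mean. In mASO Scrbl, library 2 lies above the others in all 4 genes, at 791 CPM for Ehhadh and 41.9 CPM for Acot2.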

How the data were processed

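Liver mRNA of 12 BALB/c mouse samples was sequenced after TRIzol extraction and a stranded Illumina mRNA kit, per the labels' protocols. The raw counts per gene deposited by the authors were used, and a deposited signal table, found to be those counts divided by 1 factor per library, served only as a check. TopHat and Cufflinks are named in the submitters' processing notes, while versions, genome build, annotation and use of strand in counting were not given in the sources used here. Genes were filtered by group (minimum count 10, total 15), which kept 15720 and removed 9820 of 25540. TMM scaling and edgeR 4.0.16's quasi-likelihood test in R 4.3.3 were applied in 1 fit of all 12 libraries with a term per group, Benjamini-Hochberg adjustment and 8 residual degrees of freedom. Log2 fold changes carry standard errors from the same test. Alternatives were DESeq2 1.42.0, limma 3.58.1 voom, other scalings and filters, a replicate block, a fit per arm and leaving out each library. Same-numbered libraries had correlated deviations of −0.24 to 0.19, and same numbers were treated as names only. No 2 libraries of the same group agreed within sampling noise, and pairs from different groups were not checked. Members and lists were chosen with earlier results of these data known. Values in every library are given, in each arm, for the 6 highest and 6 lowest fold changes among members that passed, for members that passed in the difference of the arms, and for Ppara, Cpt1a, Acaa1a, Acaa1b, Hacl1 and Bdh1; Ehhadh, Pex11a, Acot1, Acot2 and Hadha were added after their values were seen. From each other list up to 4 genes with the smallest p in the siRNA arm were named, plus Fgf21, Pdk4 and Ppargc1a whatever they did; some genes that this rule covers are not reported here.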

Additional observations from a re-analysis of the deposited data

Results flagged for a closer look

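Hacl1, the lyase of alpha-oxidation, stood out because its response differed between the arms. The change in the mASO arm minus that in the siRNA arm was 2.08 ± 0.26 on the log2 scale (edgeR adjusted p = 0.0216), with 2.84 in the mASO arm and 0.76 in the siRNA arm. Each of the 3 mASO STAT3 libraries was above each siSTAT3 library, and each of the 3 mASO Scrbl libraries was below each siCntrl library. Neither of these comparisons passed edgeR's test for Hacl1, and the share of all genes separated in this way was not computed. The call on the difference between the arms was lost in 5 of the fits that left out 1 library. The part of reads shared with Gm49387 in this difference was not tested.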

How the results depend on the processing

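Scaling by library totals moved the most results. It gave 12 members higher and 12 lower in the siRNA arm, 6 lower in the mASO arm, 1655 and 7266 genes of all higher and lower in the siRNA arm, 1525 and 7939 in the mASO arm, and 3 genes higher between the controls. It lowered the median of all genes in both arms and raised it by 0.11 between the controls. With it Hsd17b4 turned to −0.037 and Acot8 to −0.48 in the siRNA arm, and in the mASO arm Cpt1a turned to −0.033, Cpt2 to −0.098, Slc25a20 to −0.14, Acadl to −0.35, Acadm to −0.067, Eci2 to −0.084, Acot8 to −0.52 and Stat3 to −0.53. Pex11a in the mASO arm ran from −0.46 without mASO Scrbl library 1 to 0.46 without mASO Scrbl library 2. DESeq2's Wald test called 2 members lower in the mASO arm, 3 members and 44 genes higher and 17 lower for the difference of the arms, 2 members lower, 24 genes higher and 55 lower between the controls, and 1 member and 59 genes higher and 19 lower between the STAT3 groups. Without a filter 2 genes were higher and 1 lower for the difference of the arms, 1 member lower, 2 genes higher and 5 lower between the controls, and 5 genes higher and 1 lower between the STAT3 groups. A filter at 1 CPM in 3 libraries gave 2 members lower in the mASO arm and 2 genes higher for the difference of the arms, and limma voom gave 2 genes higher there. The fit of the siRNA arm alone gave 5 members lower. The replicate block gave 0 members and 0 genes higher for the difference of the arms, with Hacl1 at an edgeR adjusted p of 0.129, and in the mASO arm 24 members higher, where Cpt1a did not pass (adjusted p = 0.0546). The causes of these moves were not tested for any setting. The peroxisomal minus mitochondrial differences became 0.32 and 0.46 with Eci2 and Crat as peroxisomal and 0.33 and 0.48 without thioesterases. Leaving out 1 library at a time gave 19 to 20 members higher and 2 to 3 lower in the siRNA arm, 23 to 28 higher and 1 to 2 lower in the mASO arm, 0 to 1 higher for the difference of the arms and 0 to 1 lower between the controls. Over all genes it gave 0 to 8 higher and 0 to 3 lower for the difference of the arms, 0 to 4 and 0 to 9 between the controls, and 0 to 5 and 0 to 2 between the STAT3 groups. The compartment differences then ran from 0.42 to 0.53 and from 0.55 to 0.64. Every member had 184 or more counts in each library, so depth limits low genes of the other lists, such as Fgf21, more than the members.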
